A study of Mus musculus with 3 samples.

Results

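The 6 genes described here were the 3 *Onecut* genes, *Onecut1*, *Onecut2* and *Onecut3*, with *Lhx1*, *Prox1* and *Calb1*. They were taken by name as the transcription factors and the calcium-binding protein that mark retinal horizontal cells, and they are 6 of the 19946 genes listed in the raw count matrices of 3 single-cell libraries, which hold 18823, 17851 and 17849 genes. The 14611 cells of these libraries carry annotations such as primary progenitors, amacrine cells or rods, and no annotation names horizontal cells. The question was which annotated types held these transcripts, whether they were held by many cells or few, and whether they moved with an agonist of the somatostatin receptor *Sstr2* or with the *Sstr2* genotype.

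Horizontal cells are interneurons of the outer retina that receive input from photoreceptors and feed back onto them. They are born early, from progenitors that pass through expression of *Foxn4* and *Ptf1a*, a pair of factors also needed for amacrine cells. The *Onecut* factors act downstream of *Ptf1a*, and *Onecut1* is needed for horizontal cells to form and also acts in early cone precursors. *Lhx1* places the young horizontal cell in its layer, *Prox1* drives progenitors out of the cell cycle and towards this fate, and *Calb1* encodes calbindin, the classical label of the mature cell. None of the genes is private to horizontal cells: *Prox1* is used by bipolar and some amacrine cells and by progenitors, *Onecut2* by many young neurons, and calbindin by amacrine and ganglion cells.

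The explants were wild-type CD1 retinas dissected at embryonic day 14 and cultured for 6 days with 0, 5, 50 or 500 nM of a small-molecule *Sstr2* agonist, with 2 samples per dose. The P0 and P14 libraries each held 5 samples of C57BL/6 / CD1 retina from an allelic series, 1 labelled *Sstr2* +/+ (wild type), 2 labelled +/- (heterozygous) and 2 labelled -/- (knockout), and each sample is called a retina below although the number of retinas in a sample is not given in the sources used here. Samples were tagged with barcoded lipids, pooled and run as 1 library each, and nothing states that samples of a group came from separate litters, so p-values measure only the spread between these samples. The explant, P0 and P14 libraries held 5607, 5706 and 3298 cells and 22638572, 50516460 and 16851397 unique molecular identifiers (UMIs, 1 per captured RNA molecule), with median UMIs per cell of 3925 to 4317, 7258.5 to 8541 and 3381 to 3729.5 over their samples. No explant cell had more than 2499 detected genes, against 7324 at P0 and 8002 at P14. At P0 RNA of the targeted gene was higher with fewer intact *Sstr2* copies by label. *Sstr2* stood at 14.1 CPM (its UMIs scaled to a common library total) in the retina labelled wild type. It stood at 22.3 and 33.5 in those labelled heterozygous and at 41.0 and 43.3 in those labelled knockout. The paper reported higher *Sstr2* mRNA in neurogenic progenitors of P0 mutants. It proposed that the receptor's signaling may lower transcription of its own gene, which was not tested here. UMIs here are 3' tags and the deleted part of *Sstr2* is not given in the sources used here, so a tag outside the deletion would check nothing. Genotypes are given as labelled throughout. The sex makeup of the P0 and P14 retinas was not measured here. The paper found *Xist*, an RNA of female cells, to differ between wild-type and knockout neurogenic progenitors in vivo. It considered this a likely result of the sexes of the samples. Sex and genotype thus cannot be told apart between wild type and knockout at P0. In the other genotype comparisons below sex was not examined, so whether it followed genotype there is not known.

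By the GENCODE M21 annotation of GRCm38, *Onecut1* lies at chr9:74861921-74891781 on the plus strand and *Onecut3* at chr10:80494835-80517276 on the plus strand. *Lhx1* lies at chr11:84518284-84525535 on the minus strand, *Prox1* at chr1:190118035-190170714 on the minus strand and *Calb1* at chr4:15881264-15908064 on the plus strand. *Prox1* overlaps the antisense gene *Prox1os* by 419 bases, of which 133 are exonic in both. The overlap lies at the start of *Prox1*, while the UMIs here are 3' tags. The strand setting of the counting is not given in the sources used here, and how reads from those bases were assigned was not checked. *Lhx1* does not overlap its neighbour *Lhx1os*, a noncoding RNA gene that runs the other way, but their starts are only 125 bases apart. Since both transcripts appear together in the results, the 124 bases between the starts are shown, at chr11:84525536-84525659 of GRCm38.p6, on the minus strand in the direction of *Lhx1*, from the RefSeq sequence. The first base printed thus lies next to the start of *Lhx1os* and the last next to the start of *Lhx1*. The label of the line names the gene pair and not the direction. Capitals mark the 1 match to CCAAT, read as ATTGG on this strand, and the same 5 letters occur on either strand in 37.4% of 32851 RefSeq promoter windows of 300 bases.
Lhx1 to Lhx1os: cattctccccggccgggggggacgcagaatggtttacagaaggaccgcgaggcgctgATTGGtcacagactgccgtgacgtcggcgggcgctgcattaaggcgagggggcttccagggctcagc

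*Onecut2*, at chr18:64340020-64400987 on the plus strand, was the broadly spread *Onecut* gene. Levels below are CPM of the UMIs summed over the cells of a type in a sample, given as mean ± SD over samples. In the explants *Onecut2* stood at 179 ± 23.0 CPM (n = 8) in amacrine cells, 149 ± 24.3 in photoreceptors, 135 ± 94.4 in retinal ganglion cells (RGCs), 84.1 ± 19.5 in neurogenic progenitors and 23.7 ± 6.85 in primary progenitors. The ranges of neighbours in this order overlapped except between neurogenic and primary progenitors. The explant RGCs are so named by annotation only, with 5 to 61 cells a sample. The paper states that its explants lack viable RGCs. At P0 it stood at 159 ± 30.4 CPM (n = 5) in amacrine cells, 69.8 ± 7.03 in photoreceptors, 50.7 ± 20.4 in RGCs, 31.7 ± 5.52 in neurogenic progenitors and 8.65 ± 1.93 in primary progenitors. Here the ranges were apart between amacrine cells and photoreceptors and between the 2 progenitor types. A *Onecut2* UMI was found in 48.8% of explant and 51.5% of P0 amacrine cells, and in 27.7% and 28.0% of photoreceptors. With each cell thinned to 2000 UMIs, the amacrine shares were 27.4% and 21% and the photoreceptor shares 21.6% and 11.7%. Median depth of photoreceptors was 2642.5 UMIs in explants and 4534.5 at P0. At P14, which has other annotated types, *Onecut2* stood at 16.1 ± 5.56 CPM in bipolar cells, 2.38 ± 2.55 in rods and 0.254 ± 0.569 in Müller glia. P14 amacrine cells stood at 352 ± 263 CPM, from 0 in 1 heterozygous retina with 4 such cells to 676.

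*Onecut1* was low and led in photoreceptors before P14. Explant photoreceptors held 15.6 ± 7.82 CPM (n = 8, from 6.26 to 28.9) and P0 photoreceptors 15.1 ± 6.77 (n = 5, from 9.56 to 23.1). The other explant types ranged down to 0.814 ± 1.02 in primary progenitors, with overlap at each step. At P0, amacrine cells, RGCs and neurogenic progenitors followed at 8.63 ± 8.08, 7.75 ± 8.66 and 7.56 ± 4.98 CPM, all overlapping, and only primary progenitors, at 0.564 ± 0.248, lay apart from the step above. At P14 the gene was at 78.2 ± 65.0 CPM in amacrine cells and 3.90 ± 3.62 in cones, where 6 of 115 cells (5.22%) had 1 UMI each. Among 2271 rods 1 cell did (0.0440%), and 0 of 578 bipolar cells did, which allows a share of up to 0.519%.

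*Onecut3*, *Lhx1* and *Calb1* were rare in most annotated types. In the explants they gave 11, 7 and 18 UMIs among all 5607 cells, and no cell held more than 1 UMI of *Onecut3* or *Lhx1*. *Lhx1* UMIs lay in 4 types at shares of 0.146% to 0.5% of cells, each from 1 to 3 cells, and 5 of the 7 UMIs lay in cells that also had a *Onecut* UMI. For comparison, P0 photoreceptors and P14 rods, which should lack *Lhx1*, had shares of 0.0876% and 0.132%, at median depths of 4534.5 and 3374 UMIs against 2642.5 to 4742.5 in those explant types. At P0, *Onecut3* was found in 1.88% of amacrine cells and 7.06% of the 85 RGCs, and *Calb1* in 1.88% and 10.6%, with median depths of 7332 and 24853 UMIs. In CPM, *Onecut3* stood at 7.13 ± 4.59 CPM in amacrine cells and 3.59 ± 4.58 in RGCs, and *Calb1* at 4.61 ± 4.67 in amacrine cells and 5.65 ± 6.82 in RGCs, with overlap in both pairs. *Lhx1* stood at 29.4 ± 26.9 CPM in P0 amacrine cells and at no more than 0.251 ± 0.269 in any other P0 type. P14 amacrine cells held 83.7 ± 56.4 CPM of *Onecut3*, 347 ± 321 of *Lhx1* and 1515 ± 1273 of *Calb1*. The P14 type next in order held 0.173 ± 0.241 CPM of *Onecut3* in rods, 1.39 ± 2.03 of *Lhx1* in cones and 4.85 ± 2.54 of *Calb1* in rods. The heterozygous retina with 4 amacrine cells held no UMI of these genes, so the amacrine ranges started at 0 and overlapped those of the types next in order.

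*Prox1* had another distribution. In the explants primary progenitors held 61.8 ± 13.2 CPM (n = 8), neurogenic progenitors 55.7 ± 13.7 and amacrine cells 45.2 ± 13.8, all overlapping. Apart from these it stood at 15.3 ± 10.3 in RGCs and 12.1 ± 3.49 in photoreceptors. At P0 the order was neurogenic progenitors, at 67.0 ± 5.45 CPM (n = 5), primary progenitors, at 57.3 ± 1.79, amacrine cells, at 53.8 ± 18.1, photoreceptors, at 29.6 ± 6.28, and RGCs, at 1.24 ± 1.88. Amacrine cells overlapped both progenitor types, and all other pairs of these types lay apart. A *Prox1* UMI was found in 37.9% of P0 primary progenitors and in 4.71% of P0 RGCs, although their median depths were 8759 and 24853 UMIs. At P14 the gene led in bipolar cells, with 955 CPM in the wild-type retina, 1028 and 937 in the heterozygous pair and 802 and 1026 in the knockout pair, and a UMI in 80.8% of bipolar cells. Müller glia held 122 ± 48.6 CPM, rods 23.0 ± 3.82 and cones 7.82 ± 5.49, each apart from the one above it. Amacrine cells, at 698 ± 523 CPM, overlapped bipolar cells and Müller glia.

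**Figure D1:**
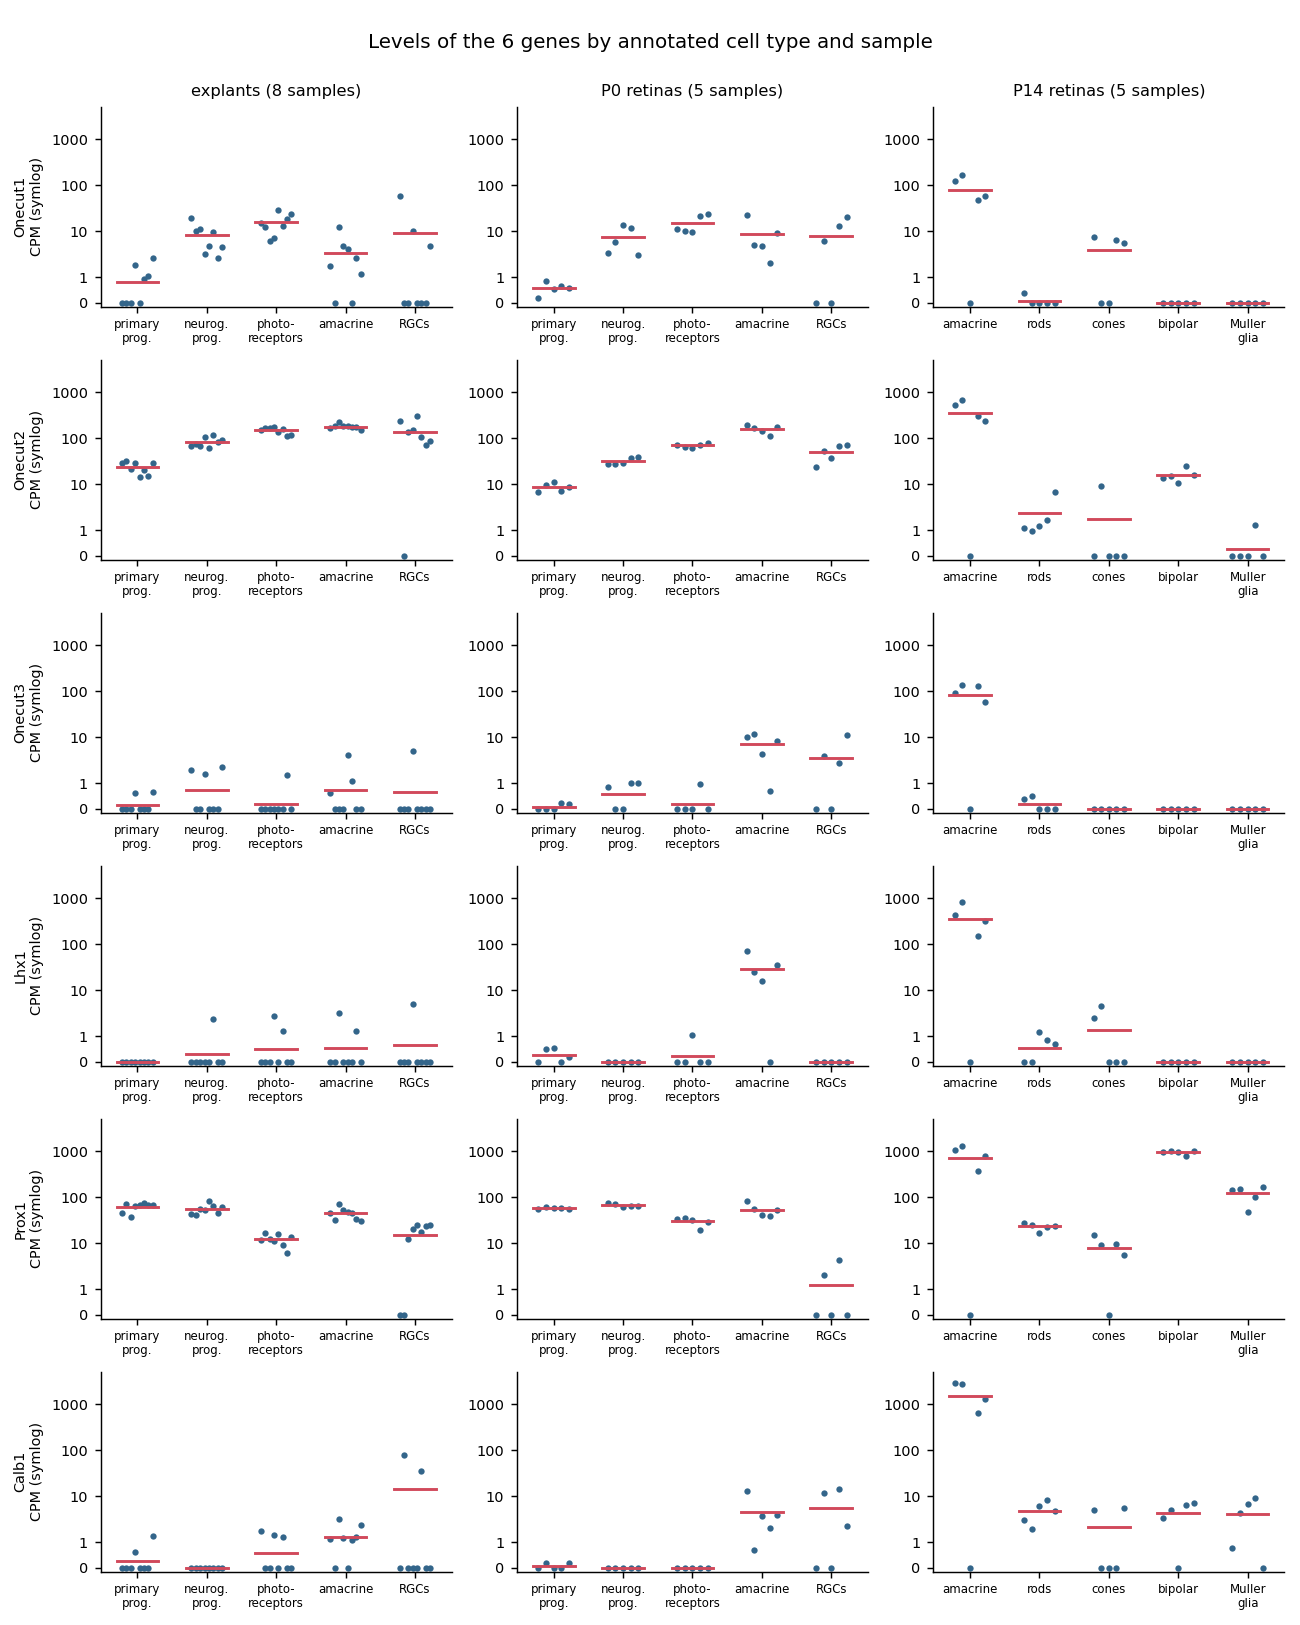
Level of each gene (rows, CPM on a symlog axis) in each annotated cell type (x axis) of the explant, P0 and P14 libraries (columns). Points are samples and bars their means. *Lhx1*, *Onecut3* and *Calb1* at P14 reach 842, 135 and 2894 CPM in amacrine cells and stay below 9 CPM in the other types, while *Prox1* is highest in bipolar cells.

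Few amacrine cells held *Lhx1*, *Onecut3* or *Calb1*. Cells with at least 1 UMI of *Lhx1* and at least 1 UMI of any *Onecut* gene, called Lhx1/Onecut cells here, numbered 36 of 14611 (0.246%, exact Clopper-Pearson interval at 95% 0.173 to 0.341%, which covers counting error only). The explants held 5 such cells (0.0892%), P0 20 (0.351%) and P14 11 (0.334%). Of the P0 cells 17 were annotated as amacrine cells, or 1.68% of that type, and 3 as primary progenitors. Of the P14 cells 10 were annotated as amacrine cells, or 14.7% of the 68, and 1 as a cone. The 5 explant cells were spread over 4 types, each had 1 *Lhx1* UMI, and none held more than 3 of the 6 genes.

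*Prox1* and *Calb1*, which the rule did not use, were high in these cells as a group. Among P0 amacrine cells the 17 Lhx1/Onecut cells held 579 CPM of *Prox1* against 37.5 in the other 996 cells, and 82.7 CPM of *Calb1* against 2.37. All 17 had a *Prox1* UMI, while 9 of the 17 had a *Calb1* UMI. Single cells of the wild-type retina held 7 and 5 of the 21 *Calb1* UMIs. At P14 the 10 cells held 1402 CPM of *Prox1* against 220 in the other 58 amacrine cells, and 3575 CPM of *Calb1* against 114. All 6 genes were detected together in 9 P0 and 8 P14 cells, every one an amacrine cell by annotation. No explant cell had all 6.

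In absolute counts, the 17 P0 amacrine cells held 1 to 32 *Lhx1* UMIs, 2 to 42 *Onecut2* UMIs, 1 to 14 *Prox1* UMIs and 0 to 7 *Calb1* UMIs. The 10 P14 cells held 2 to 70 *Lhx1*, 2 to 69 *Onecut2*, 1 to 125 *Prox1* and 5 to 344 *Calb1* UMIs. Within amacrine cells these cells carried 32.8% of the P0 and 88% of the P14 *Prox1* UMIs, and 52.5% and 97.3% of the *Calb1* UMIs. The rule chose the cells by *Lhx1* and *Onecut* UMIs, so their shares of these genes are a description only: all 251 P0 and all 290 P14 *Lhx1* UMIs of amacrine cells, 93.2% and 100% of the *Onecut3*, 66.2% and 100% of the *Onecut1* and 27.0% and 97.1% of the *Onecut2* UMIs. Of the 6 genes, only *Onecut2* and *Prox1* had at P0 most of their amacrine UMIs in other cells.

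**Figure D2:**
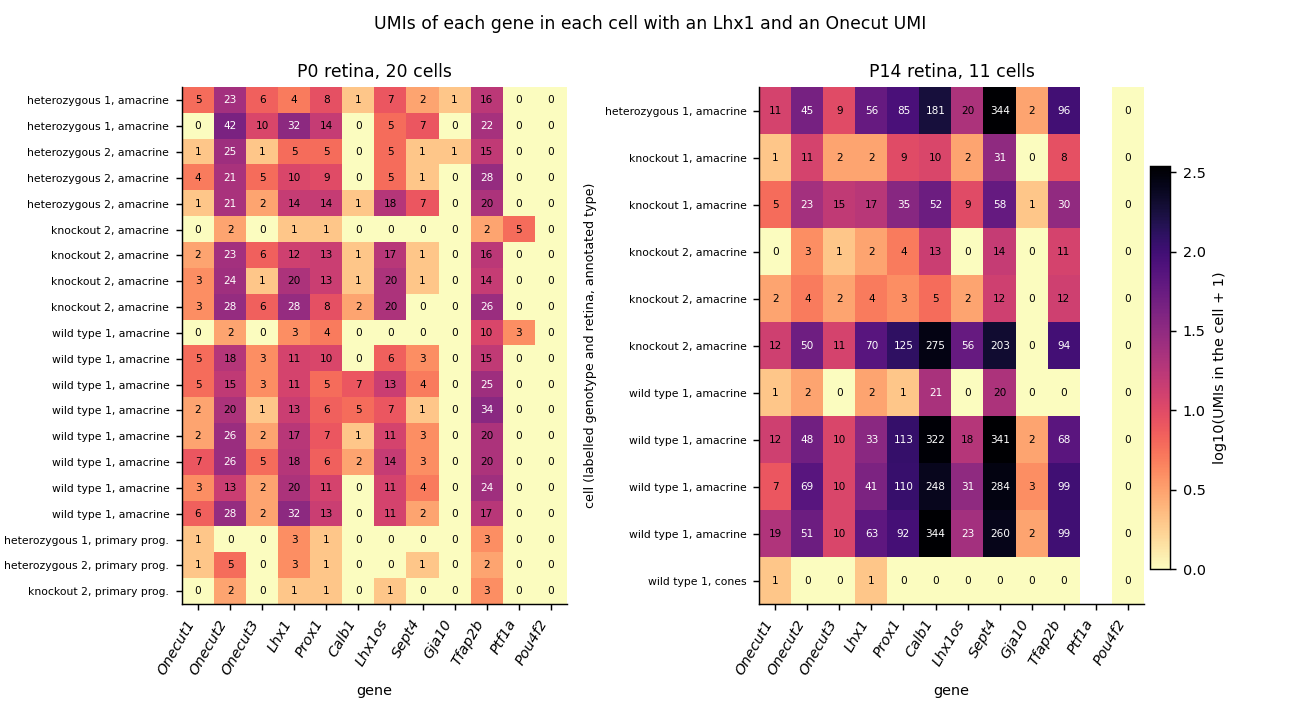
UMIs of the 6 genes and 6 further genes (x axis) in each Lhx1/Onecut cell (rows, named by labelled genotype and annotated type) at P0 and P14, coloured by log10 of UMIs plus 1, with blank entries for a gene not in that table. *Lhx1os* follows *Lhx1* in most amacrine rows, *Pou4f2* is 0 throughout, and *Calb1* reaches 344 UMIs in a cell at P14.

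These cells were also deep. Their median was 13926 UMIs against 7332 over all P0 amacrine cells and 44080.5 against 4512.5 at P14, where single cells ranged from 3499 to 80410. No doublet caller was run, and doublets were not removed here. Without the 5% of cells with the most UMIs of each type, 15 cells remained at P0 and 7 at P14. With cells thinned to 2000 UMIs the shares were 0.261% at P0, 0.213% at P14 and 0.0222% in the explants, so the order of the explants below the retinas was the same. The upper end of the explant library bears on this: all 17 P0 amacrine cells of this kind had more than 2499 detected genes (2812 to 5751), the most of any explant cell, as did 74.9% of the other P0 amacrine cells. At P14 7 of the 10 did. The difference between explants and retinas cannot be told apart from this limit on genes per cell.

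On the deposited two-dimensional embedding (UMAP), 15 of the 17 P0 amacrine cells lay within 0.5 units of their common centre, and no other cell of the library lay there. The nearest other amacrine cell was 0.759 units away. The remaining pair, 1 from the wild-type and 1 from a knockout retina, lay 8.79 and 9.89 units off and differed in content. They had 2 *Onecut2* UMIs each and 7 and 2 UMIs of *Prdm13*, an amacrine factor. They also had 3 and 5 UMIs of *Ptf1a*, a factor of both horizontal and amacrine fate. No other P0 amacrine cell of this kind had a *Ptf1a* UMI. Neither of the pair had a UMI of *Onecut1*, *Lhx1os*, *Nefl*, *Gad1* or *Slc32a1*. The 3 cells annotated as primary progenitors lay 17.8 to 17.9 units away in a spot of 26 cells of that annotation. They were shallow, with 2555 to 2920 UMIs, and had 2 or 3 UMIs of *Nefl* and 1 to 4 of *Nefm*. At P14 all 10 amacrine cells lay within 0.108 units of their centre. The spot held 11 cells, all amacrine by annotation, and the additional cell had UMIs of *Onecut2*, *Prox1* and *Calb1*.

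**Figure D3:**
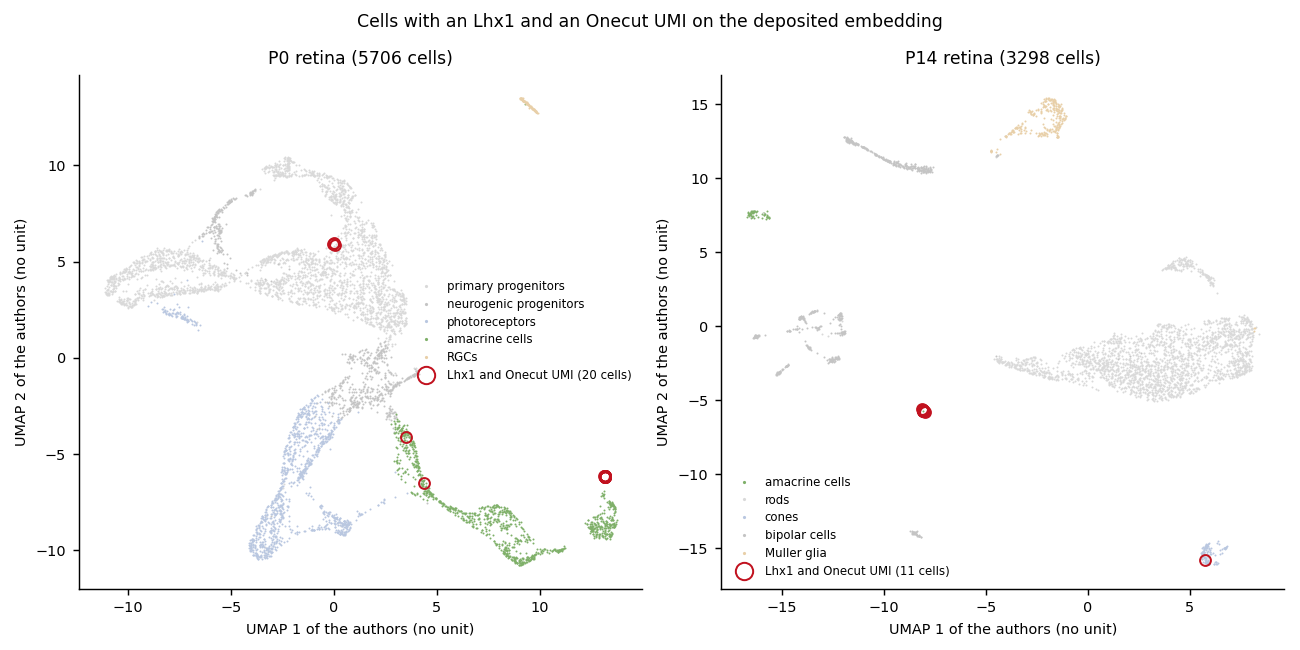
Deposited embedding of all P0 (left) and P14 (right) cells, with both axes in the authors' UMAP coordinates (no unit), coloured by annotated type. Red circles mark the 20 P0 and 11 P14 Lhx1/Onecut cells, of which 15 and 10 fall on a single spot.

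Genes outside the rule separated these cells from the rest of their annotated types. The 20 P0 cells were set against the other 3790 cells of both annotations, amacrine cells and primary progenitors. By the ratio of CPM plus 10, the leading genes at P0 were *Pyy* (2514 CPM against 0.202, although only 8 of the 20 cells had it), *Nefl* (1766 against 7.93), *Lhx1os* (652 against 0.144), *Nefm* (1221 against 16.3), *Cacna2d3* (359 against 4.93), *Sez6* (263 against 2.94), *Gm20649* (195 against 0.144), *Vgf* (206 against 0.923), *Zfp804a* (301 against 6.28) and *Tpm3* (4032 against 202). With the 17 amacrine cells set against the 996 other amacrine cells alone, *Pyy*, *Lhx1os*, *Nefl*, *Tpm3* and *Nefm* led, the ratio of *Nefl* was 46.9 instead of 99.1, and *Zfp804a* was not among the first 20. *Pyy* encodes the neuropeptide peptide YY, *Nefl* and *Nefm* encode neurofilament subunits, and *Cacna2d3* encodes a calcium channel subunit. At P14 the leading genes were *Vim* (3226 against 19.3), *Calb1* itself (3507 against 28.3), *Tpm3* (3638 against 39.8), *Sept4* (3736 against 54.0), *Slc4a3* (3123 against 52.7), *Itgb5* (534 against 4.50), *Dock4* (606 against 6.42), *Tnr* (1054 against 18.6), *Lhx1os* (384 against 0.642) and *Wfdc10* (401 against 1.28). *Vim* encodes the intermediate filament vimentin, *Sept4* a septin and *Slc4a3* an anion exchanger. *Lhx1os* and *Tpm3* were on both lists.

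Against other amacrine cells, the horizontal markers beside the 6 genes were present at both ages. *Sept4* stood at 157 against 10.1 CPM at P0 and 3808 against 86.2 at P14. *Gja10*, a connexin gene of horizontal cells, gave 2 UMIs in the P0 cells and 10 UMIs in 5 of the P14 cells, and 0 in all other amacrine cells. *Megf11*, which guides the spacing of horizontal cells, stood at 161 against 5.48 CPM and at 316 against 27.8. The summed list of 7 horizontal markers, of which all 7 were detected, ranged over retinas from 3002 to 3685 CPM against 150 to 185 at P0 and from 5838 to 12247 against 0 to 645 at P14. That list includes genes the rule used.

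Markers of other cells moved too. The 8 amacrine markers summed to 1990 to 2755 CPM in the P0 cells and 2836 to 3238 in the other amacrine cells, and all 8 were detected: *Tfap2b* was present (1275 against 978 CPM), *Pax6* was 925 against 1331, *Tfap2a* 66.9 against 312 and *Tfap2c* 3.94 against 69.3. The 9 ganglion cell markers summed to 1554 to 5528 CPM against 104 to 151, but 5 of them, *Pou4f1*, *Pou4f2*, *Pou4f3*, *Isl1* and *Rbpms*, were at 0, and *Nefl* (1795 against 28.5 CPM) and *Nefm* (1228 against 49.2) made up most of the sum. Photoreceptor markers summed to 0 to 66.3 CPM against 152 to 239, with *Otx2*, *Rcvrn* and *Prdm1* among those at 0. Neurogenic, cone, bipolar and vascular markers also ranged lower. Other lists reached higher in some retinas. Primary progenitor markers summed to 0 to 1548 CPM against 356 to 597 and pigment epithelium markers to 0 to 300 against 12.9 to 23.7. Blood markers summed to 0 to 44.2 against 0 to 2.75 and astrocyte markers to 0 to 18.8 against 0.550 to 2.45. RNA from other cells was not tested as a part of these sums. Of the genes of inhibitory transmission, *Gad1* stood at 161 against 51.5 CPM at P0 and 4.86 against 370 at P14, and *Slc32a1* at 43.3 against 73.7 and 158 against 206. At P14 the glycine transporter gene *Slc6a9* was at 0 against 147 CPM, *Nefl* at 457 against 478 and *Nefh* at 245 against 41.7. All 5 microglia markers were at 0 at both ages.

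The share of Lhx1/Onecut cells differed among the P0 retinas. Among amacrine cells they were 8 of 218 (3.67%) in the retina labelled wild type, 2 of 160 (1.25%) and 3 of 232 (1.29%) in the heterozygous pair and 0 of 184 and 4 of 219 (1.83%) in the knockout pair. The 0 of 184 allows a share of up to 1.63%. The wild-type retina was highest, and the knockout pair spanned the heterozygous pair. At P14 they were 4 of 15 amacrine cells in the wild-type retina, 1 of 4 and 0 of 4 in the heterozygous pair and 2 of 22 and 3 of 23 in the knockout pair. With 1 wild-type retina and 2 in each other group an exact permutation test could not reach 0.05, and none was run.

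The summed levels of the 6 genes in P0 amacrine cells also differed among retinas. These sums include the Lhx1/Onecut cells, which were chosen by *Lhx1* and *Onecut* UMIs. For those genes a match with the share of these cells thus follows from the rule. *Lhx1* stood at 71.7 CPM in the retina labelled wild type, 25.2 and 15.6 in the heterozygous pair and 0 and 34.4 in the knockout pair. *Onecut1* stood at 22.4, at 4.90 and 4.83 and at 2.03 and 9.02 CPM in the same order. *Calb1* stood at 12.6, at 0.699 and 3.75 and at 2.03 and 3.95 CPM. For all 3 genes the wild-type retina lay above the other 4. How many of all genes do so was not counted, so this is a description. *Prox1* was 83.8 CPM against 54.5 and 40.8 and against 38.6 and 51.3, and *Onecut2* was 191 against 171 and 145 and against 113 and 174. *Onecut3* was 10.3, 11.9 and 4.29, and 0.677 and 8.46 CPM, where wild type and heterozygous overlapped.

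By edgeR's quasi-likelihood test, knockout against wild type gave log2 fold changes of -1.95 (SE 0.67) for *Lhx1*, -1.92 (SE 0.54) for *Onecut1*, -2.0 (SE 0.72) for *Calb1* and -1.06 (SE 0.81) for *Onecut3*. Each of these had a Benjamini-Hochberg adjusted p of 0.998. *Prox1* was -0.87 (SE 0.22, edgeR adjusted p = 0.646) and *Onecut2* -0.39 (SE 0.20, edgeR adjusted p = 0.998). Over the 5 annotated types at P0, 15 of 30 pairs of gene and type could be tested and 0 were called, where 0.112% of all tests were, and DESeq2 also called 0. At an unadjusted p under 0.05, 6 of the 15 passed, against 4.78% of all genes. *Lhx1*, *Onecut1*, *Calb1* and *Prox1* in amacrine cells were among the 6, all lower. They came from the same amacrine sums, which held the Lhx1/Onecut cells, so they are not independent of each other. *Onecut2* in RGCs and *Onecut1* in photoreceptors were the others, higher at log2 fold changes of 1.48 and 1.02. The median over the 15 was -0.24, against medians over all genes of 0.00 to 0.01 in the 5 types. The wild-type arm was 1 retina, assumed to vary like the other groups. Sex makeup was not measured at P0 and cannot be told apart from genotype. Leaving out the second knockout retina, which held 4 of these cells, gave some calls. Both arms then had 1 retina, and the spread came from the heterozygous pair alone. Testing without a filter on low counts gave 3 calls. The share of all tests called under these settings is not given here, so these calls have no background.

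Without the Lhx1/Onecut cells, a refit added after the data were seen, the same P0 amacrine sums changed. Since the cells removed were chosen by *Lhx1* and *Onecut* UMIs, the refit takes out *Lhx1* by construction and lowers the *Onecut* genes by selection, and its values for those genes are a description. *Onecut2* then stood at 113 CPM in the labelled wild-type retina, at 129 and 112 in the heterozygous pair and at 113 and 134 in the knockout pair. Its log2 fold change between knockout and wild type became 0.15 instead of -0.39. *Onecut1* stood at 5.51, at 1.44 and 1.65 and at 2.03 and 4.65 CPM. The wild-type retina was still the highest but no longer lay far above the knockout range. *Prox1* stood at 51.4 CPM in the wild-type retina, 40.4 and 26.4 in the heterozygous pair and 38.6 and 32.6 in the knockout pair, with a log2 fold change of -0.52. *Calb1* stood at 4.28 CPM in the wild-type retina, 0 and 3.30 in the heterozygous pair and 2.03 and 1.74 in the knockout pair. For *Prox1* and *Calb1*, which the rule did not use, the wild-type retina thus remained the highest. How many of all genes do so was not counted. The share of these cells and the RNA per cell of the genes cannot be separated in the sums over all amacrine cells.

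**Figure D4:**
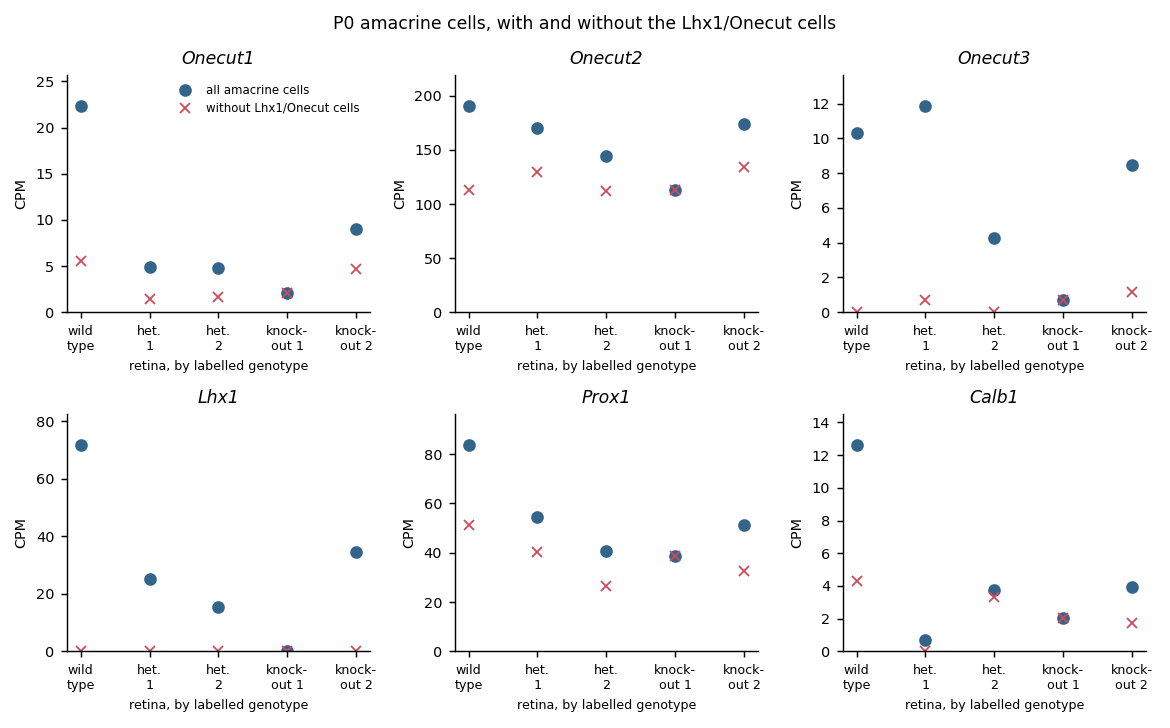
CPM of the 6 genes (panels, y axis) in the amacrine cells of each P0 retina (x axis, by labelled genotype), with all cells (circles) and without the Lhx1/Onecut cells (crosses). The *Lhx1* level of 71.7 CPM in the wild-type retina and of 34.4 in the second knockout retina is 0 by construction without these cells, which were chosen by *Lhx1* and *Onecut* UMIs, and *Onecut2* then lies between 112 and 134 CPM in every retina.

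Knockout against heterozygous at P0 gave 0 of 15 calls, where 0.109% of all tests were called, 2 unadjusted p under 0.05, against 4.91% of all tests, and a median of -0.06. DESeq2 called 0. In amacrine cells the 6 log2 fold changes ran from -0.65 to 0.36. The larger difference lay in photoreceptors. *Onecut1* stood there at 11 CPM in the labelled wild-type retina and at 9.89 and 9.56 in the heterozygous pair. In the knockout pair it stood at 21.8 and 23.1, so that both lay above the other 3. Such separation was not counted over all genes. The log2 fold change was 1.21 (SE 0.30, edgeR adjusted p = 0.343) against heterozygous and 1.02 (SE 0.39, edgeR adjusted p = 0.979) against wild type, and neither passed. *Onecut2* in P0 RGCs stood at 24.0 CPM, at 51.8 and 37.1 and at 68.9 and 71.5 in the same order, in 12 to 26 cells a retina, with a log2 fold change of 1.48 (SE 0.49, edgeR adjusted p = 0.186) against wild type.

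At P14 12 of 30 pairs could be tested in each comparison and 0 were called by edgeR or DESeq2, with 0 unadjusted p under 0.05, against 2.81% of all tests for wild type and 3.30% for heterozygous. The background of calls was 0.0976% of all tests against wild type and 0.0705% against heterozygous. In P14 amacrine cells *Calb1* stood at 2894 CPM in the labelled wild-type retina, 2735 and 0 in the heterozygous pair and 651 and 1297 in the knockout pair, and *Lhx1* at 430, at 842 and 0 and at 147 and 317. The labelled wild-type retina lay above both knockout retinas, a separation not counted over all genes, and the heterozygous pair spanned them. On simulated counts for P14 amacrine cells edgeR recovered 0% of 200 genes changed 4-fold, so a change of that size was not detectable there.

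In the explants 9 of 30 pairs could be tested for 500 against 0 nM agonist, and 0 were called by edgeR or DESeq2, where 0.198% of all tests were called. One unadjusted p was under 0.05, for *Onecut2* in photoreceptors, against 6.36% of all tests. Its levels were 151 and 169 CPM without agonist, 166 and 179 at 5 nM, 139 and 158 at 50 nM and 112 and 117 at 500 nM. Both 500 nM samples lay below the other 6, with a log2 fold change of -0.44 (SE 0.16, edgeR adjusted p = 0.641). How many of all genes had samples so separated was not counted. The share of cells with a UMI of *Xist*, an RNA of female cells, was 99.3% and 98.3% in the 500 nM samples, 98.7% in 1 sample at 5 nM and 57.7 to 62.4% in the other 5, so dose and sex makeup cannot be told apart at 500 nM. On simulated counts edgeR recovered 79 to 93% of 200 genes changed 4-fold in explant and P0 amacrine cells and photoreceptors. The changed genes were drawn at random from all genes tested, and recovery at the levels of the 6 genes was not measured.

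Other genes of the pathway were taken from 3 lists, whose counts stand beside calls in 0.198% of all tests in explants, 0.112% at P0 against wild type and 0.109% against heterozygous. The 7 factors upstream of horizontal and amacrine fate (*Foxn4*, *Ptf1a*, *Atoh7*, *Neurog2*, *Olig2*, *Rorb* and *Notch1*) gave 2 calls of 25 tests in explants and 0 of 28 in either P0 comparison. The explant calls were *Atoh7*, with a log2 fold change of 0.44 in neurogenic progenitors (edgeR adjusted p = 0.0259) and 2.22 in primary progenitors (edgeR adjusted p = 0.00684), beside the difference in *Xist*. The 8 genes linked to *Onecut* function (*Thrb*, *Rxrg*, *Otx2*, *Isl1*, *Pou4f2*, *Tfap2a*, *Tfap2b* and *Prdm13*) gave 1 call of 20 in explants, *Otx2* in amacrine cells at 1.34 (edgeR adjusted p = 0.0105). At P0 they gave 1 of 21 against wild type, *Pou4f2* in RGCs at -1.36 (edgeR adjusted p = 0.000987), and 1 of 21 against heterozygous, *Isl1* in amacrine cells at 1.72 (edgeR adjusted p = 0.0143). The 9 effector genes of horizontal cells (*Sept4*, *Gja10*, *Gad1*, *Slc32a1*, *Megf10*, *Megf11*, *Nefl*, *Nefm* and *Nefh*) gave 0 of 12 in explants. At P0 they gave 1 of 18 against wild type, *Nefl* in RGCs at -0.58 (edgeR adjusted p = 0.00253), and 0 of 18 against heterozygous. At P14 the 3 lists gave 0 of 8, 0 of 16 and 0 of 16 in each comparison. DESeq2 called none of the 6 genes and types named here, and 0 in any of the 3 lists. The wild-type arm of the *Pou4f2* and *Nefl* tests was 1 retina with 13 RGCs, so the spread came from the other genotypes. For these tests and that of *Isl1*, the sex makeup of the P0 retinas was not measured. With 1 sample left out, *Isl1* alone kept its edgeR call each time, with log2 fold changes of 1.47 to 2.10, and it moved to 6.56 without the cells with the most UMIs. *Pou4f2* missed the threshold without the first knockout retina (edgeR adjusted p = 0.149), and *Nefl* without the first (edgeR adjusted p = 0.218) or the second (edgeR adjusted p = 0.215). *Atoh7* missed it in neurogenic progenitors without any 1 of the 4 explant samples compared (edgeR adjusted p = 0.0916 to 0.980). In primary progenitors it missed it without either 0 nM sample (edgeR adjusted p = 0.189 and 0.407) or without the second 500 nM sample, at a log2 fold change of 0.55 (edgeR adjusted p = 0.925). *Otx2* missed it without the first 0 nM sample (edgeR adjusted p = 0.807) or the second 500 nM sample, at 0.79 (edgeR adjusted p = 1.00). At an unadjusted edgeR p under 0.05, 5 of 25, 8 of 20 and 5 of 12 tests passed in explants, against 6.36% of all tests. At P0 3 of 28, 4 of 21 and 7 of 18 passed against wild type, where 4.78% of all tests did, and 4 of 28, 6 of 21 and 4 of 18 against heterozygous, where 4.91% did. At P14 1 of 8, 2 of 16 and 0 of 16 passed against wild type, where 2.81% did, and 1 of 8, 1 of 16 and 0 of 16 against heterozygous, where 3.30% did.

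Most *Prox1* and *Onecut2* in P0 amacrine cells lay outside the Lhx1/Onecut cells, so cells with and without a UMI of a gene were compared within a type and within each sample, by edgeR with the sample as a block. These comparisons were added after the data were seen. There were 18 with at least 50 cells on each side and more than a few cells on each side in every sample. Of these, 8 are described by gene here, and the genes were tested across the whole table. Some splits with at least 50 cells on each side were left out for too few cells in a sample. Explant photoreceptors with a *Onecut1* UMI (70 of 1662, with 2 in a 5 nM sample) were among those left out. A cell that holds a given UMI tends to be deeper, and that depth is given beside each.

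P0 amacrine cells with a *Prox1* UMI (178 of 1013) held more RNA of early fate factors. In this comparison 1476 of 7487 genes (19.7%) were called, the background for the calls below. *Ptf1a* was higher at a log2 fold change of 1.98, *Prdm13* at 1.67, *Notch1* at 1.47, *Neurog2* at 0.94 and *Rorb* at 0.55, and 4 of 5 upstream genes tested were called, all higher. The median of the 5 was 0.94, against 0.01 over all genes. *Onecut2* was higher at 1.72, and at 0.78 without the Lhx1/Onecut cells. All of the removed cells had a *Prox1* UMI and were chosen partly by *Onecut2*, so this fall follows from the selection. Of 7 amacrine markers tested 6 were called, 2 higher, *Prdm13* among them, and 4 lower. Those lower were *Tfap2a*, *Tfap2b*, *Slc32a1* and *Gad1*, at -0.77, -0.60, -1.17 and -0.79. *Otx2*, a photoreceptor and bipolar factor, was higher at 1.91. The summed neurogenic markers ranged from 597 to 840 CPM in cells with *Prox1* and from 315 to 469 without, photoreceptor markers from 113 to 598 against 85.8 to 155 and vascular markers from 91.2 to 342 against 26.4 to 86.9, and their part in the result was not tested. Median depth ranged over retinas from 7163 to 8595.5 UMIs with *Prox1* and from 7006 to 7475.5 without.

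The neurofilament genes behaved differently in that comparison. *Nefl* was 2.81 and *Nefm* 1.75 higher on the log2 scale in all cells with *Prox1*, and -1.88 and -0.96 without the Lhx1/Onecut cells. The sign thus turned on 17 cells, and *Gad1* went from -0.79 to -2.07. All of these cells had a *Prox1* UMI, and as a group they were high in *Nefl* and *Nefm*. The turn therefore follows from their removal and is a description. *Megf11*, at 2.73, and *Sept4*, at 1.86, could not be tested without these cells. In explant amacrine cells with a *Prox1* UMI (210 of 1372), 876 of 4054 genes (21.6%) were called, and the pattern of the fate factors was like that at P0: *Ptf1a* 1.43, *Prdm13* 1.87, *Neurog2* 0.77, *Rorb* 0.55 and *Onecut2* 0.50 were higher, and *Tfap2a* -0.62, *Tfap2b* -0.80 and *Gad1* -3.42 lower. Of 7 amacrine markers tested 5 were called, 2 higher, *Prdm13* among them, and 3 lower. Median depth was 4356 to 5168 UMIs with *Prox1* and 4518 to 4878 without. The neurogenic markers summed to 828 to 1359 CPM against 435 to 703, and the type held 1 Lhx1/Onecut cell.

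**Figure D5:**
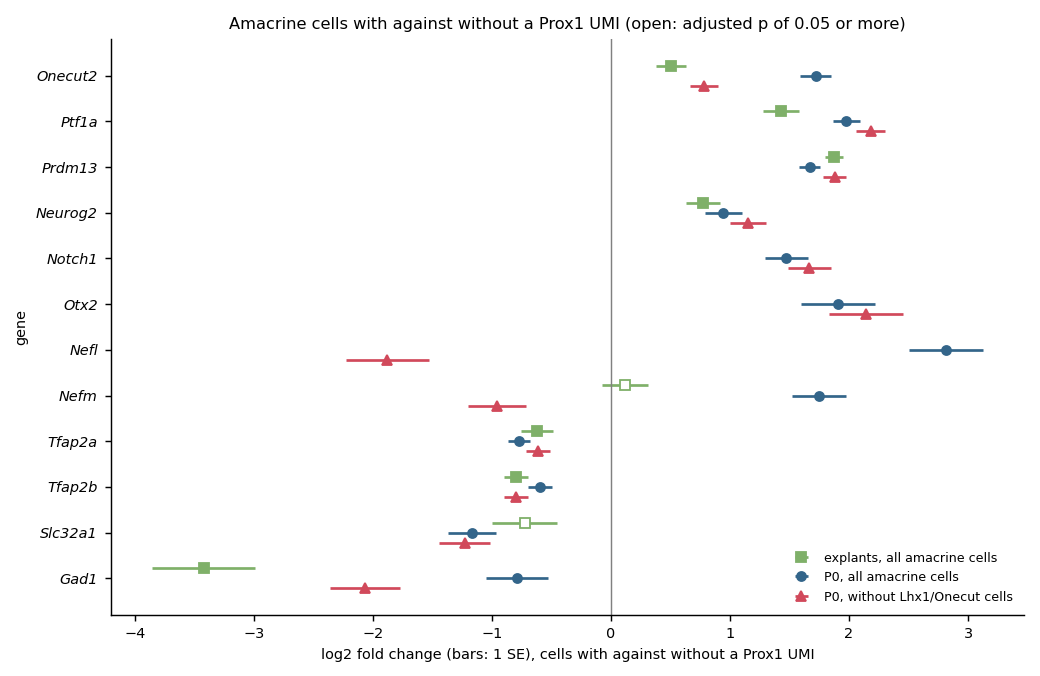
Log2 fold change (x axis, bars 1 SE) of 12 genes (y axis) in amacrine cells with against without a *Prox1* UMI, in explants (squares), in all P0 cells (circles) and in P0 cells without the Lhx1/Onecut cells (triangles), with open symbols for an adjusted p of 0.05 or more. *Ptf1a* and *Prdm13* lie at 1.43 to 2.18 in all 3, while *Nefl* turns from 2.81 to -1.88.

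The split by *Onecut2* was made in the same type. Of the P0 amacrine cells with a *Onecut2* UMI 25.9% also had *Prox1*, against 17.6% of all amacrine cells, and 19.3% did in the explants, against 15.3%. P0 amacrine cells with a *Onecut2* UMI (522 of 1013) had 275 of 7752 genes called (3.55%), with *Prox1* higher at 2.01, *Ptf1a* at 0.82, *Prdm13* at 0.50 and *Rorb* at 0.27. Without the Lhx1/Onecut cells *Prox1* was 1.39 and *Nefl* turned from 1.47 to -0.94. *Nefm* was 0.92 with and -0.32 without them, the latter not past the threshold. All of the removed cells had a *Onecut2* and a *Prox1* UMI, so these changes follow from the selection and are a description. Explant amacrine cells with a *Onecut2* UMI (670 of 1372) had 201 of 5230 genes called (3.84%), with *Prox1* at 0.72, *Ptf1a* at 0.77, *Prdm13* at 0.83, *Rorb* at 0.25 and *Tfap2b* at -0.35. Median depth was 4510 to 4921 UMIs in these explant cells and 4508 to 4873 in those without, and 7248 to 7815.5 against 6943 to 7428 at P0.

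Photoreceptors with and without a *Onecut* UMI also differed. Explant photoreceptors with a *Onecut2* UMI (461 of 1662) had 590 of 4257 genes called (13.9%). Genes of the neurogenic state were higher, *Atoh7* at 1.31 and *Notch1* at 0.65. The photoreceptor factor *Otx2* was also higher, at 0.22, while genes of cones and later photoreceptors were lower, *Rcvrn* at -1.65, *Opn1sw* at -1.21, *Thrb* at -0.97, *Rxrg* at -0.70 and *Nr2e3* at -0.68. All but *Rxrg*, which could not be tested there, kept their sign and passed in cells at or above the median depth. Median depth ranged over samples from 2683 to 3714.5 UMIs with *Onecut2* and from 2415 to 2621 without. P0 photoreceptors with a *Onecut2* UMI (320 of 1142) had 599 of 7601 genes called (7.88%). *Nr2e3* stood at -1.64, *Nrl* at -1.12 and *Rxrg* at -0.94. *Neurog2* stood at 1.41, *Prox1* at 0.65 and *Tfap2b*, on the amacrine marker list, at 2.75. Here depth differed by retina, from 5208 to 10155 UMIs with *Onecut2* and from 3757 to 4452 without, and only 39 genes were called among cells at or above the median depth. The 8 amacrine markers summed to 230 to 649 CPM with *Onecut2* and 130 to 201 without, and their part in the result was not tested.

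P0 photoreceptors with a *Onecut1* UMI (98 of 1142) differed from those without in fewer genes, 48 of 6736 (0.713%). Median depth ranged over retinas from 3995 to 11677.5 UMIs with *Onecut1* and from 4042 to 5117 without. *Thrb*, the thyroid hormone receptor gene of cones, was higher at 1.23 (edgeR adjusted p = 0.000529, in 5 of 5 retinas). It stood at 1.53 in cells at or above the median depth and at 1.36 without the deepest cells. The cone markers, a list without *Thrb*, gave 0 calls of 4 tested. They summed to 1309 to 4045 CPM with *Onecut1* and 1605 to 3379 without, which overlap. Of 6 neurogenic markers tested 1 was called, and it was lower. *Tfap2b* at 3.02 and *Prdm13* at 2.72, both on the amacrine marker list, were also higher. *Tfap2b* was present in the Lhx1/Onecut cells too, so it does not tell other amacrine cells from these. The 8 amacrine markers summed to 300 to 976 CPM against 166 to 310, and their part in the result was not tested. *Rcvrn* was higher at 1.02, *Pax6* at 0.69, and *Nr2e3* lower at -0.58, which was 0.16 in the deeper cells. P0 primary progenitors with a *Prox1* UMI (1061 of 2797) had 351 of 10165 genes called (3.45%), with *Neurog2* at 0.63 and *Hes6* at 0.32 higher and *Sfrp2*, a gene of early progenitors, lower at -0.40. Median depth was 8649 to 10255 UMIs with *Prox1* and 7759 to 9585 without, and *Neurog2* did not pass without the deepest cells.

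The genes whose levels ran most like each member were sought by Pearson's r of log2(CPM + 10) over the sums per sample and type, 40 in the explants and 25 at each age. These sums share samples and depth, so r is a description. For *Lhx1* the nearest genes were *Lhx1os* (r = 0.975), *Tnr* (0.942) and *Pyy* (0.914) at P0 and *Lhx1os* (0.993), *Cacng3* (0.989) and *Calb1* (0.988) at P14. *Onecut1* at P14 lay nearest *Lhx1* (0.979) and *Onecut3* nearest *Ret* (0.997) and *Megf11* (0.996). *Prox1* lay nearest *Ran* (0.906) in the explants and *Mpnd* (0.969) at P14, and *Onecut2* nearest *Top2b* (0.876), *Celf3* (0.951) and *Adgrb1* (0.984). *Onecut1* before P14 had no gene above 0.724 in the explants or 0.827 at P0.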

How the data were processed

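The authors made 10x Chromium 3' libraries from pooled, lipid-barcoded samples (MULTI-seq), traced each cell to its sample by deMULTIplex and normalized in Seurat with SCT. The submitters' processing notes name Cell Ranger 3.1.0, Seurat 3 and mm10. The deposited raw values are whole UMI counts per gene and cell, without normalization by the authors. The SCT matrices that the authors deposited hold natural log values, of 1 plus a depth-corrected count, and served as an alternative. Cell types, samples and embedding were those the authors recorded per cell. The cell filters are not given in the sources used here. Libraries shared 9, 4 and 7 cell barcodes.

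Sums of UMI counts per sample and annotated type entered edgeR 4.0.16 under R 4.3.3 (quasi-likelihood, TMM, filterByExpr, Benjamini-Hochberg over all genes of a type, threshold 0.05), all samples of a library in 1 fit, after a check on simulated data. DESeq2 1.42.0, limma 3.58.1 on log2(CPM + 1) of summed SCT values and other settings were alternatives. No doublet caller was run. Genes named were the 6 members, the genes of 3 lists with at least 20 UMIs or called, the 3 genes with the highest r per member (at least 100 UMIs) and the 10 leading genes of the Lhx1/Onecut cells (at least 20 UMIs). Members and lists were chosen with earlier results of these data known. Some genes that these rules name, 1 of them a list member left out of its list's counts, are not reported here.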

Additional observations from a re-analysis of the deposited data

How the results depend on the processing

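The counts of members called stayed at 0 for the explants and for P14 under every alternative run. For P0 knockout against wild type, 3 pairs were called without a filter on low counts. Leaving out 1 retina gave 0 to 4 calls against wild type and 0 to 1 against heterozygous, with the highest value in both when the second knockout retina was left out, which against wild type leaves 1 retina in each arm. For these settings neither the pairs tested nor the share of all tests called is given here, so these counts have no background. Without the Lhx1/Onecut cells, which were chosen partly by this gene, *Onecut2* in P0 amacrine cells turned to 0.15 on the log2 scale. In the same cells *Nefl* and *Nefm* turned to -1.88 and -0.96 with *Prox1* and to -0.94 and -0.32 with *Onecut2*. The removed cells lay only on the side with the UMI, so these turns are a description. *Nr2e3* in P0 photoreceptors with *Onecut1* turned to 0.16 among deeper cells. Among cells at or above the median depth of their type, fewer genes were called, with fewer cells and genes tested: 297 in explant photoreceptors by *Onecut2*, 77 and 505 in explant amacrine cells by *Onecut2* and *Prox1*, 30 and 39 in P0 photoreceptors by *Onecut1* and *Onecut2*, and 129 and 964 in P0 amacrine cells by *Onecut2* and *Prox1*. Without the deepest cells, 11 were called in P0 photoreceptors by *Onecut1* and 168 in P0 amacrine cells by *Onecut2*. The share of Lhx1/Onecut cells was 0.159% overall and 0.0222% in the explants with cells thinned to 2000 UMIs.

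The annotated type with the highest level changed only for *Onecut3* and *Lhx1* in the explants, both under 12 UMIs, and for *Calb1* at P0, which moved from RGCs to amacrine cells without the first heterozygous or the first knockout retina. No paired analysis was possible because the cells carry pool barcodes and no replicate numbers, so the replicate block was not run.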

Other observations

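Neuropeptide RNA was uneven among the Lhx1/Onecut cells at P0. *Pyy* was found in 8 of 20 cells, with 659 UMIs in all, from 2 to 255 UMIs a cell, while the other 996 P0 amacrine cells had none.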
